A study of Mus musculus with 6 samples.

Results

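The genes described here are 8 inhibitors of JAK-STAT signaling, namely *Socs1*, *Socs2*, *Socs3*, *Cish*, *Socs5*, *Socs7*, *Ptpn2* and *Pias1*, in follicular helper T (Tfh) cells of the mouse spleen. They were chosen by name as brakes on cytokine signals, and they are 8 of the 53379 gene identifiers that each count file lists. RNA-seq compared Tfh cells from 3 CTL and 3 *Prdm1*-CKO mice, with 1 library per mouse, to ask how Tfh cells differ when dendritic cells lack BLIMP-1. The *Prdm1*-CKO mice were *Prdm1* fl/fl with a CD11c-CRE+ transgene, which deletes *Prdm1*, the gene of BLIMP-1, mainly in dendritic cells and not by design in T cells. The CTL mice were *Prdm1* fl/fl without CRE or *Prdm1*+/+ with CD11c-CRE+, and nothing in the labels tells these genotypes apart. The sample titles call the second group a Blimp1 KO and its genotype field a Blimp1 KD. All mice were females, 6 to 8 weeks old when immunized with NP-CGG in CFA, and the cells were taken on day 7. Live TCRβ+CD4+CXCR5+PD1+ cells were sorted, and FOXP3 is not part of the gate given for these libraries.

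Cytokines such as IL-2, IL-6, IL-21 and the interferons bind receptors that carry Janus kinases (JAKs). The kinases phosphorylate STAT proteins, which enter the nucleus and switch on target genes. Among those targets are inhibitors of the same pathway. The proteins of the CIS and SOCS family hold an SH2 domain, which binds phosphotyrosine, and a SOCS box, which recruits an E3 ubiquitin ligase. PTPN2 is a phosphatase that removes phosphate from JAKs and STATs, and PIAS1 is a SUMO ligase that restrains transcription by STATs. In T helper cells IL-6 and IL-21 signals through STAT3 favor the Tfh program, and IL-2 signals through STAT5 oppose it.

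Total counts per library lay between 7147601 and 16973392. CTL replicate 2 stood apart. Its log2 CPM correlated across genes with those of the other mice at 0.875 on average, where the other 5 libraries reached averages from 0.923 to 0.944. The fold change of each inhibitor is therefore also given without this mouse, while the patterns over the 6 mice and the nearest genes include it. The T cell genes *Cd4* and *Cd3e* and the gate genes *Cxcr5* and *Pdcd1* were present in every library, with *Cxcr5* from 254 to 477 CPM (counts scaled by TMM to the size of each library). *Prdm1* itself lay between 27.5 and 30.0 CPM in CTL and between 30.2 and 30.9 CPM in *Prdm1*-CKO mice, and since the deletion is in other cells this does not check the labels. *Foxp3*, the marker of regulatory T (Treg) cells, was also present, between 134 and 182 CPM. In bulk RNA, fewer cells that express a gene and less RNA per cell cannot be told apart.

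All 8 inhibitors were detected in every mouse, and all 8 passed the expression filter that left 14555 genes to test. Comparing *Prdm1*-CKO with CTL Tfh by the quasi-likelihood test of edgeR, 0 of the 8 inhibitors passed an adjusted p under 0.05, and the background in that fit was 0% of the genes tested. DESeq2 also called 0 of the 8, where 0.053% of the genes passed. At an unadjusted p under 0.05 the count was again 0 in edgeR, where the background was 2.35%. *Pias1* was the only inhibitor in which the groups did not overlap, with every *Prdm1*-CKO mouse below every CTL mouse, a pattern found in 3.86% of the genes tested. The opposite pattern was found in 4.56% of all genes and in none of the inhibitors. The fitted difference was above 0 for 4 inhibitors and below 0 for 4. The log2 fold changes ran from -0.40 for *Socs2* to 0.59 for *Socs5*, with a median of -0.06, where the median over all genes tested was 0.01. The median size of the change, without its sign, was 0.18 for the inhibitors and 0.23 for all genes tested.

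The levels of the 8 inhibitors were set beside each other per kilobase of exon, as FPKM, since a longer transcript collects more counts. *Ptpn2* had the highest level at 33.4 ± 3.60 FPKM (SD, n = 6), above 88.1% of the genes tested. *Pias1* at 19.2 ± 3.33 FPKM and *Socs3* at 16.7 ± 4.55 FPKM followed, and *Pias1* lay above *Socs3* in only 4 of 6 mice, so these neighbors did not differ beyond their spread. *Socs1* was at 11.4 ± 2.58 FPKM and below *Socs3* in 5 of 6 mice. *Cish* was at 8.14 ± 1.35 FPKM and below *Socs1* in 6 of 6 mice, although their ranges over mice overlapped. The 3 remaining genes kept their places in every mouse, with *Socs5* at 3.58 ± 1.35 FPKM, *Socs7* at 1.61 ± 0.472 FPKM and *Socs2* at 0.726 ± 0.262 FPKM, the last above 11.7% of the genes tested. The order of the 8 means was the same without CTL replicate 2. *Ptpn2* held the first place in all 6 mice, with a mean log2 ratio to *Pias1* of 0.81 ± 0.23 (SD, n = 6). The order rests on the exon lengths of GENCODE M21, from 2891 bases for *Socs3* to 9531 for *Socs2*, where all annotated exons of a gene are merged.

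**Figure D1:**
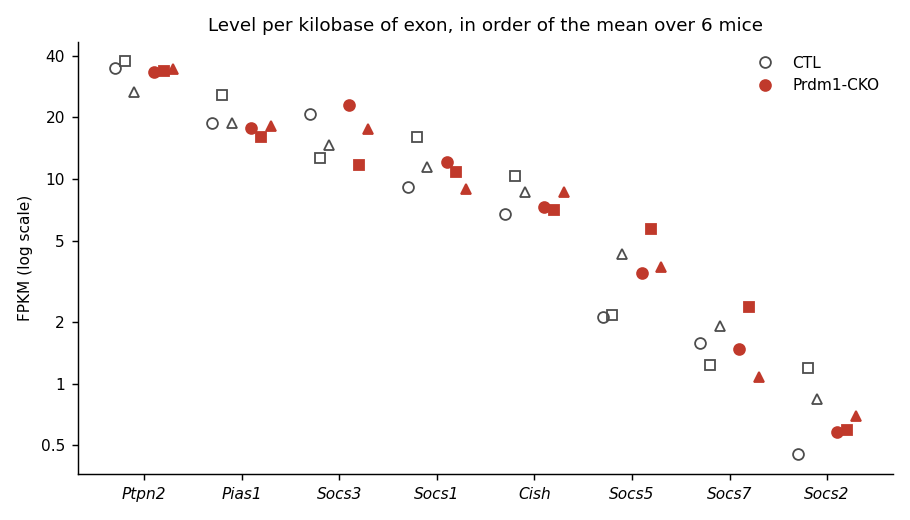
Level of each inhibitor in FPKM (log scale) for each mouse, with open symbols for CTL and filled symbols for *Prdm1*-CKO mice, and circle, square and triangle for replicates 1, 2 and 3. *Ptpn2* lies highest and *Socs2* lowest in every mouse, while the points of *Pias1* and *Socs3* intermix.

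*Cish*, *Socs1*, *Socs2* and *Socs3* are the family members best known as rapid targets of STATs, and they form a feedback loop. Many STAT sites hold the letters TTCNNNGAA, which read the same on both strands. RefSeq start site windows on GRCm38.p6, from 250 bases before to 50 after each start, were given for 4 of the 8 inhibitors, *Socs1*, *Socs3*, *Cish* and *Pias1*. The letters TTCNNNGAA stood in the windows of *Cish* and *Socs3* but not in those of *Socs1* and *Pias1*. They stood in windows of 5 of the 42 other JAK-STAT genes that had one, and in 8.29% of all 32817 such windows. *Cish* had them at 2 places, as 0.457% of the windows do. The stretches around the matches are shown because they show how these feedback genes differ in the match, with the matching letters in capitals.
Cish, chr9:107296654-107296683, plus strand: cagttTTCCTGGAAagTTCTTGGAAatctg
Socs3, chr11:117969502-117969531, minus strand: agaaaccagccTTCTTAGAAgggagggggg
The *Cish* matches begin at the first and at base 12 of the RefSeq transcript and fall in annotated exon and UTR of GENCODE M21, and the *Socs3* match lies from 154 to 146 bases before its start, inside an intron of a longer annotated transcript. A match of letters is a description and not a measured binding site.

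*Cish* encodes CIS, which binds receptors of the IL-2 family and limits STAT5. It lies on chromosome 9 of GRCm38 from 107296026 to 107302784. In order of replicate, CTL mice had 43.3, 66.6 and 55.3 CPM and *Prdm1*-CKO mice had 47.1, 45.6 and 55.5 CPM. The *Prdm1*-CKO values lay inside the CTL range, and CTL replicate 2 was the highest of the 6 mice. *Prdm1*-CKO Tfh averaged 49.4 ± 5.34 CPM (SD, n = 3), against 55.1 ± 11.6 CPM (SD, n = 3) for CTL Tfh. In edgeR the log2 fold change came to -0.16 (95% interval -0.64 to 0.33, standard error 0.21, adjusted p = 0.996) and -0.0075 without CTL replicate 2. Of its exon bases, 11.5% are shared with 2 noncoding genes on the opposite strand, *Gm17040* and *Gm17041*, which had at most 4 counts in any mouse.

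*Socs1* encodes an inhibitor that blocks JAK catalysis directly and restrains interferon-γ and IL-2 family signals. The CTL mice had 26.4, 46.4 and 33.3 CPM (replicates 1 to 3) and the *Prdm1*-CKO mice 35.2, 31.5 and 25.9 CPM. The groups overlapped, and the highest value was again in CTL replicate 2 while the lowest was in *Prdm1*-CKO replicate 3. In edgeR the log2 fold change came to -0.19 (95% interval -0.80 to 0.41, standard error 0.26, adjusted p = 0.996). Without CTL replicate 2 it turned to 0.04, so its direction rested on that mouse.

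*Socs3* encodes the inhibitor that binds gp130, the shared receptor chain of the IL-6 family, and limits STAT3. It lies on chromosome 11 from 117966079 to 117970047. Its counts ran from 285 to 1184 per library. In order of replicate, CTL mice had 60.0, 36.5 and 42.2 CPM and *Prdm1*-CKO mice had 66.7, 34.0 and 50.9 CPM. The highest and the lowest value were both in *Prdm1*-CKO mice, and the groups overlapped over nearly their whole range. *Prdm1*-CKO Tfh averaged 50.5 ± 16.4 CPM (SD, n = 3), against 46.2 ± 12.3 CPM (SD, n = 3) for CTL Tfh. In edgeR the log2 fold change came to 0.13 (95% interval -0.55 to 0.81, standard error 0.30, adjusted p = 0.996). It turned to -0.02 when CTL replicate 2 was left out and to -0.12 when *Prdm1*-CKO replicate 1 was, so the direction was not stable.

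The mice with the most *Socs3*, replicate 1 of each group, also had the highest summed level of 8 early response genes (*Fos*, *Fosb*, *Jun*, *Egr1*, *Ier2*, *Atf3*, *Dusp1* and *Hspa1a*), which rise within minutes of stimulation or of tissue handling. By replicate, the sums were 2439, 682 and 1081 CPM in CTL mice against 1836, 1113 and 1214 CPM in *Prdm1*-CKO mice, and all 8 genes were detected. Both mice were on top in 5 of the 8 genes. *Ier2* was lowest in CTL replicate 1, at 145 CPM, and *Egr1* differed little, from 84.4 to 111 CPM over the 6 mice. *Fos* alone ran from 105 CPM in CTL replicate 2 to 804 CPM in CTL replicate 1. The sum of 9 macrophage markers, also all detected, ran from 524 to 1500 CPM in CTL and from 1097 to 1506 CPM in *Prdm1*-CKO mice and was lowest in CTL replicate 2. The part of early response genes and of macrophage RNA in the level of *Socs3* was not tested.

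*Socs2* encodes an inhibitor best known for restraining growth hormone signals, and it lies on chromosome 10 from 95385362 to 95417180. It had the fewest counts of the 8, from 54 to 98 per library. In order of replicate, CTL mice had 4.32, 11.4 and 7.99 CPM and *Prdm1*-CKO mice had 5.52, 5.69 and 6.64 CPM. The *Prdm1*-CKO mice lay close together inside a CTL range that spanned 2.63-fold. Its log2 fold change in edgeR was -0.40 (adjusted p = 0.996, standard error 0.45), and the 95% interval from -1.43 to 0.63 was the widest of the 8. It was -0.05 without CTL replicate 2.

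*Socs5* and *Socs7* belong to the branch of the family with long N-terminal regions. SOCS5 has been linked to IL-4 and epidermal growth factor receptors. *Socs5* was at 13.6, 13.9 and 27.7 CPM in the CTL mice, by replicate, and at 22.3, 36.4 and 24.0 CPM in the *Prdm1*-CKO mice. All *Prdm1*-CKO mice exceeded CTL replicates 1 and 2, but CTL replicate 3 exceeded 2 of them. *Prdm1*-CKO Tfh averaged 27.6 ± 7.70 CPM (SD, n = 3), against 18.4 ± 8.04 CPM (SD, n = 3) for CTL Tfh. In edgeR the log2 fold change came to 0.59 (95% interval -0.23 to 1.40, standard error 0.36, unadjusted p = 0.135 and adjusted p = 0.996), a fold of 1.50 with bounds of 0.855 and 2.65. The two-sided exact permutation p was 0.3. This difference was the largest of the 8 in size, and its interval holds both no change and a rise of over 2-fold.

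The difference in *Socs5* stayed above 0 with each mouse left out, from 0.35 without *Prdm1*-CKO replicate 2 to 1.01 without CTL replicate 3. In the latter fit of 3 against 2 mice the unadjusted p was 0.0127 and the adjusted p 0.760, both from edgeR. In that fit 6.07% of all genes had an unadjusted p under 0.05. The groups no longer overlapped there, since the mouse left out was the only CTL mouse among the *Prdm1*-CKO values. The share of all genes separate in that split is not given here. Without CTL replicate 2 the log2 fold change was 0.41. It was 0.39 without CTL replicate 1, so the size of the difference in *Socs5* moved with several of the mice. Of the marker lists for other cells, the 5 plasma cell markers were the one whose sum was above all CTL mice in every *Prdm1*-CKO mouse, from 404 to 644 CPM in CTL and from 645 to 865 CPM in *Prdm1*-CKO mice, and all 5 were detected. Most of the sum was *Jchain*, which overlapped, from 254 to 383 CPM in CTL and from 363 to 636 CPM in *Prdm1*-CKO mice. Of the 5 markers, *Mzb1* alone separated the groups. Their part in the *Socs5* values was not tested.

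*Socs7* lies on chromosome 11 from 97362551 to 97398542. *Socs7* was at 11.5, 9.003 and 13.9 CPM in the CTL mice, by replicate, and at 10.8, 17.3 and 7.88 CPM in the *Prdm1*-CKO mice. The *Prdm1*-CKO mice held both the highest and the lowest value and enclosed the CTL mice. In edgeR the log2 fold change came to 0.06 (95% interval -0.81 to 0.92, standard error 0.38, adjusted p = 0.997). It turned to -0.10 when CTL replicate 2 was left out and to -0.29 when *Prdm1*-CKO replicate 2 was.

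**Figure D2:**
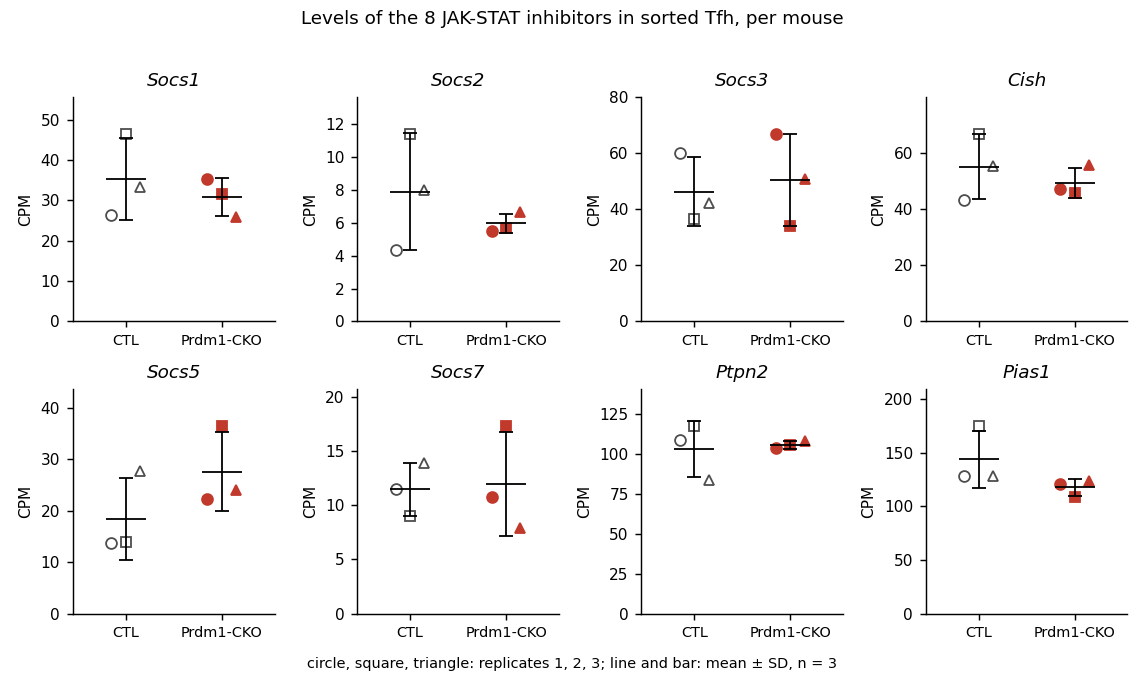
CPM of each inhibitor per mouse on axes that start at 0, with open symbols for CTL and filled symbols for *Prdm1*-CKO mice, and circle, square and triangle for replicates 1, 2 and 3. Lines and bars are the mean ± SD of 3 mice. The groups overlap in 7 genes and are separate in *Pias1*, and CTL replicate 2 (open square) is the highest point in 5 genes.

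*Ptpn2* encodes the phosphatase TC-PTP, which dampens IL-2 and interferon signals in T cells. It lies on chromosome 18 from 67665511 to 67724595. In order of replicate, CTL mice had 109, 117 and 83.6 CPM and *Prdm1*-CKO mice had 104, 105 and 108 CPM. The *Prdm1*-CKO mice were nearly equal and lay inside the CTL range. The SD of log2 CPM was 0.03 in *Prdm1*-CKO and 0.26 in CTL Tfh. Fitted by edgeR, the log2 fold change was 0.03 (adjusted p = 0.996, standard error 0.17). Its 95% interval, from -0.36 to 0.43, was the narrowest of the 8 and leaves room for a fold between 0.780 and 1.34. It was 0.13 without CTL replicate 2 and -0.09 without CTL replicate 3.

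*Pias1* lies on chromosome 9 from 62878368 to 62987924. In order of replicate, CTL mice had 129, 175 and 128 CPM and *Prdm1*-CKO mice had 121, 109 and 124 CPM. The highest *Prdm1*-CKO mouse was at 123.8 CPM and the lowest CTL mouse at 128.1 CPM, so the groups were separate by a small gap. Leaving out CTL replicate 2, the highest mouse, cannot change this. *Prdm1*-CKO Tfh averaged 118 ± 7.74 CPM (SD, n = 3), against 144 ± 26.8 CPM (SD, n = 3) for CTL Tfh. In edgeR the log2 fold change came to -0.29 (95% interval -0.69 to 0.11, standard error 0.17, unadjusted p = 0.133 and adjusted p = 0.996). The two-sided exact permutation p was 0.1, the smallest that 3 mice against 3 can give. Without CTL replicate 2 the log2 fold change was -0.13, less than the 0.15 of its standard error, and every other mouse left out gave values from -0.37 to -0.23. Summed markers of Treg cells (*Foxp3*, *Il2ra*, *Ikzf2* and *Ctla4*, all detected) lay lower in *Prdm1*-CKO mice too, from 604 to 679 CPM against 695 to 770 CPM in CTL mice. None of the 4 markers separated the groups by itself, and *Foxp3* was highest of the 6 mice in *Prdm1*-CKO replicate 1, at 182 CPM. The sum of 7 CD8 T cell and NK cell markers, all detected, was from 188 to 205 CPM against 206 to 282 CPM, and most of it was *Nkg7*, from 121 to 144 CPM against 145 to 188 CPM. The 7 markers did not move as a set, since *Nkg7* and *Cd8a* were lower in every *Prdm1*-CKO mouse than in every CTL mouse, *Cd8b1* was higher, from 14.6 to 17.1 CPM against at most 13.7 CPM in CTL mice, and the other 4 overlapped. Their part in the level of *Pias1* was not tested.

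**Figure D3:**
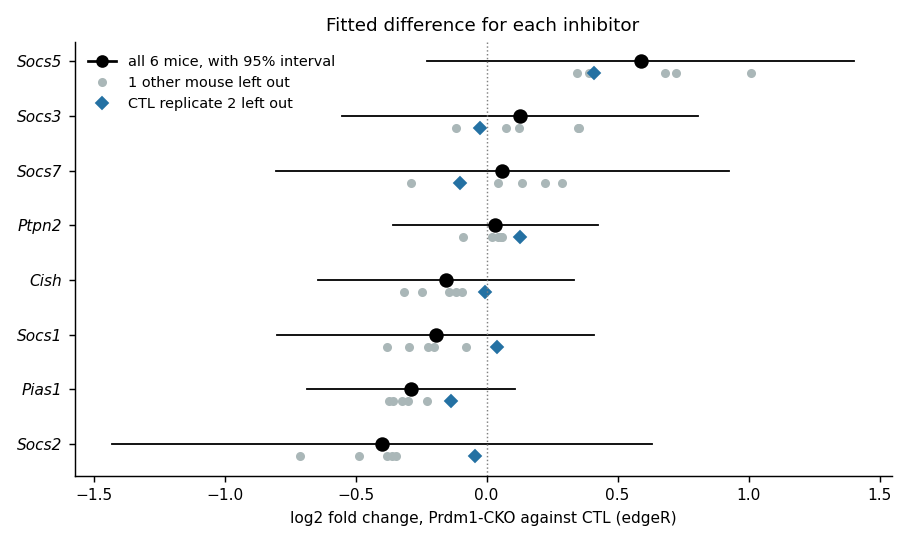
Log2 fold change of *Prdm1*-CKO against CTL Tfh for each inhibitor from edgeR, with its 95% interval (black), and below it the values with 1 mouse left out (grey) or with CTL replicate 2 left out (blue diamond). Every interval spans 0. The blue diamond lies nearer to 0 than the black point, or past it, in 7 genes, and farther out in *Ptpn2*.

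Each *Prdm1*-CKO mouse was also set against the mean of the CTL mice on the log2 CPM scale. *Socs5* was above that mean in all 3 mice, by 0.36, 1.06 and 0.46 in replicates 1 to 3. *Ptpn2* was above it in all 3 as well, but by at most 0.08. *Pias1* was below it in all 3, at -0.24, -0.38 and -0.20, and *Socs2* too, at -0.40, -0.36 and -0.14. Set against CTL replicates 1 and 3 only, *Socs2* was at -0.09, -0.05 and 0.17 and so no longer below in every mouse. *Socs5* stayed above, at 0.20, 0.90 and 0.30. *Pias1* was at -0.09, -0.24 and -0.05, and its sign was fixed beforehand, since every *Prdm1*-CKO mouse lay below every CTL mouse. *Socs1*, *Socs3*, *Cish* and *Socs7* had *Prdm1*-CKO mice on both sides of the mean of all 3 CTL mice. For *Socs3* these values ran from -0.41 to 0.56 and for *Socs7* from -0.51 to 0.61, which is wider than any difference between the group means among the 8.

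CTL replicate 2 was the highest of the 6 mice in *Socs1*, *Socs2*, *Cish*, *Ptpn2* and *Pias1*, 5 of the 8 inhibitors, whereas 27.8% of all genes tested had their highest value in this mouse. It was the lowest in none of the 8, where 34.9% of all genes were lowest in it. *Prdm1*-CKO replicate 2 was the highest in *Socs5* and *Socs7* and the lowest in *Socs3* and *Pias1*. Between the highest and the lowest mouse, CPM differed by 1.40-fold in *Ptpn2*, 1.54-fold in *Cish* and 1.60-fold in *Pias1*, and by 2.63-fold in *Socs2* and 2.67-fold in *Socs5*. The median SD of log2 CPM over the inhibitors was 0.34 in CTL and 0.19 in *Prdm1*-CKO mice, and over all genes tested it was 0.45 and 0.25.

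For each inhibitor the genes with the most similar pattern were found as those with the smallest root mean square difference in log2 CPM over the 6 mice, after each gene's own mean was taken off. For *Socs5* these were *Bcas1* at 0.098 and *Map7d1* at 0.110, against a median of 0.630 over all genes. For *Socs3* they were *Wdr3* at 0.076 and *Ngly1* at 0.085, for *Socs1* *Trmt6* at 0.069 and *Tti2* at 0.071, and for *Cish* *Fem1a* at 0.040 and *Phkg2* at 0.043. *Socs2* had *Evi5l* at 0.068 and *2310061I04Rik* at 0.109, and *Socs7* had *Gm11598* at 0.047 and *Rps29* at 0.072. *Ptpn2* had *Eif4b* at 0.032 and *Oat* at 0.038, and *Pias1* had *Mrrf* at 0.047 and *Fam120b* at 0.050. No inhibitor was among the nearest genes of another, which was likely beforehand with so few genes kept for each. With 14555 genes to choose from and only 6 mice, these likenesses are a description.

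The other genes of the pathway were described with the same fit, from lists of 13 other brakes, 4 partners of the SOCS box, 17 cytokine receptors, 11 JAKs and STATs and 10 STAT targets. All 55 genes were tested, and edgeR called 0 of them, in either direction, at an adjusted p under 0.05, where it called 0% of all genes tested. No gene of the 55 had an unadjusted p under 0.05 in edgeR, where 2.35% of all genes tested did. With other settings or 1 mouse left out, at most 2 genes were higher at that threshold. At most 4 were lower, without CTL replicate 3, where 6.07% of all genes had such a p in edgeR. In 0 of 55 genes were the groups separate, where 8.42% of all genes tested were separate in either direction. Fitted differences were above 0 in 29 genes and below 0 in 26, with a median log2 fold change of 0.01.

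Among the other brakes, the log2 fold change was lowest for *Pias2*, a relative of *Pias1*, at -0.55 (standard error 0.38, adjusted p = 0.996 from edgeR). *Pias2* was at 17.1, 50.9 and 43.2 CPM in the CTL mice, by replicate, and at 23.4, 26.8 and 25.6 CPM in the *Prdm1*-CKO mice. The *Prdm1*-CKO mice lay between CTL replicate 1 and the other CTL mice. It was highest for *Sh2b3*, which encodes the adaptor LNK, at 0.31 (standard error 0.25), with 78.7, 158 and 102 CPM in CTL and 150, 125 and 144 CPM in *Prdm1*-CKO mice. Here too CTL replicate 2 was the highest mouse and the groups overlapped.

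SOCS proteins act through a ubiquitin ligase that holds elongin B and C, cullin 5 and RNF7, encoded by *Elob*, *Eloc*, *Cul5* and *Rnf7*. All 4 had a fitted difference above 0, from 0.04 for *Rnf7* to 0.28 for *Eloc* (standard error 0.19, adjusted p = 0.996 from edgeR). *Eloc* had 61.5, 48.7 and 45.6 CPM in CTL and 65.6, 64.8 and 58.6 CPM in *Prdm1*-CKO mice, and CTL replicate 1 overlapped the *Prdm1*-CKO range. *Rnf7* had 53.4, 63.0 and 56.8 CPM against 63.2, 59.4 and 55.6 CPM, and these ranges almost coincided.

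Among the receptors, *Il6st*, the gene of the gp130 chain that SOCS3 binds, had the lowest log2 fold change at -0.46 (standard error 0.47, adjusted p = 0.996 from edgeR). Its levels were 227, 280 and 93.2 CPM in CTL and 243, 94.7 and 97.7 CPM in *Prdm1*-CKO mice, so both groups held high and low mice. *Il12rb2*, a chain of the IL-12 receptor, had the highest value at 1.20 (standard error 1.09), from 0 to 58 counts per CTL library and 19 to 103 counts per *Prdm1*-CKO library. CTL replicate 2 was the library with 0 counts, which allows up to 0.348 CPM. Among JAKs and STATs the values ran from -0.32 for *Jak2* (standard error 0.41) to 0.23 for *Tyk2* (standard error 0.28). *Jak2* had 64.1, 137 and 40.1 CPM in CTL and 60.2, 80.6 and 52.4 CPM in *Prdm1*-CKO mice, and *Tyk2* had 191, 130 and 87.7 CPM against 193, 135 and 152 CPM. Neither kinase separated the groups.

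Among STAT targets outside the SOCS family, *Irf1*, the gene of a transcription factor, had the highest log2 fold change at 0.22 (standard error 0.17, adjusted p = 0.996 from edgeR), with 297, 229 and 297 CPM in CTL and 367, 293 and 297 CPM in *Prdm1*-CKO mice. *Bcl2*, a survival gene that STAT5 can induce, had the lowest at -0.34 (standard error 0.23), with 75.6, 120 and 82.1 CPM against 59.1, 87.3 and 72.6 CPM. The groups overlapped in both genes. The median over the 10 targets was -0.0040.

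**Figure D4:**
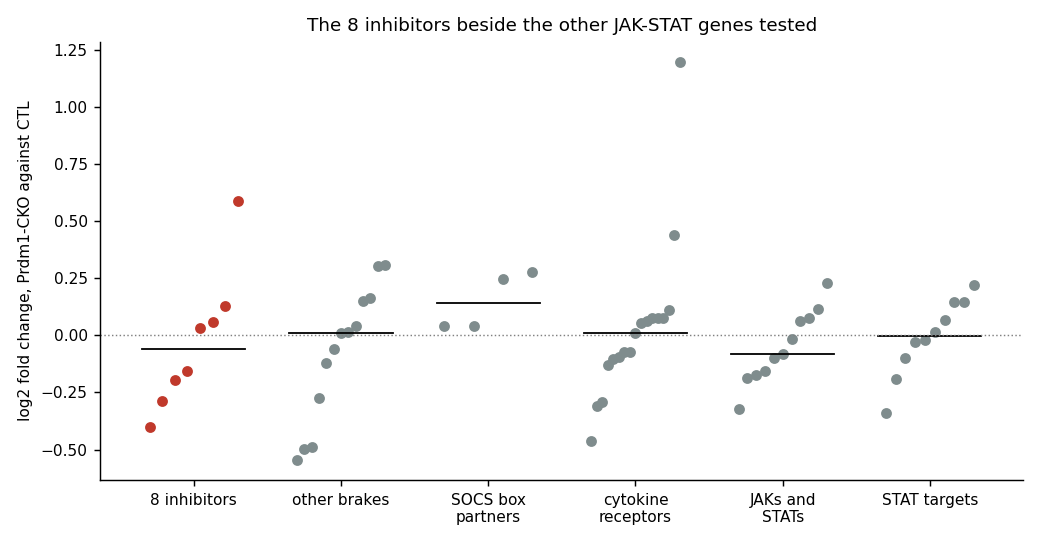
Log2 fold change of *Prdm1*-CKO against CTL Tfh for the 8 inhibitors (red) and the 5 other lists of JAK-STAT genes (grey), 1 point per gene, with the median of each list as a line. The medians lie between -0.08 for JAKs and STATs and 0.14 for the partners of the SOCS box, and *Il12rb2* at 1.20 stands above the other genes.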

How the data were processed

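The authors sorted splenic Tfh cells, made Smart-seq2 libraries from 50 ng of RNA, sequenced them as 2 x 25 bp reads and counted reads per gene with featureCounts on a GRCm38 annotation. Raw, unnormalized counts of 1 library for each mouse were deposited. STAR 2.4.2a and DESeq2 are named in the submitters' processing notes. Strandedness and the treatment of multiply aligned reads are not given in the sources used here.

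GENCODE M21 (GRCm38) gave symbols, exon lengths and coordinates for 53274 of 53379 identifiers. For *Socs1* and *Socs5* the identifier versions differ, and no coordinates of these are given. Counts were normalized with TMM and tested with edgeR 4.0.16 (filterByExpr, quasi-likelihood F test, two-sided, no covariate) in R 4.3.3, with Benjamini-Hochberg adjustment over 14555 genes. Log2 CPM used a prior count of 2, and FPKM is CPM per kilobase of merged exons. Standard errors were taken as the size of the log2 fold change over the square root of the F statistic of edgeR. The 95% intervals were built from these standard errors with the t distribution, and are approximate. Single values were compared by exact permutation, whose smallest two-sided p is 0.1 for 3 mice per group. A count of 0 was taken to allow 3 counts, which covers counting error only. The steps were tested on simulated data.

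The pathway genes named are those with the highest and lowest fold change of each list, besides any with an unadjusted p under 0.05 or separate groups. The inhibitors, lists and alternatives were chosen with earlier results of these data known. Sequences are from RefSeq on GRCm38.p6. Alternatives were DESeq2 1.42.0 size factors and Wald test, the replicate number as a block, a filter of 10 counts per mouse, an unfiltered table, voom of limma 3.58.1 with sample quality weights, and each mouse left out.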

Additional observations from a re-analysis of the deposited data

How the results depend on the processing

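No inhibitor and none of the 55 other pathway genes passed an adjusted p under 0.05 under any of the 12 alternatives. Hardly any gene did, with 9 of all genes in the DESeq2 Wald test, 1 in the unfiltered table and 0 in every other alternative. The lowest adjusted p of an inhibitor was 0.729, for *Pias1* without CTL replicate 1 in edgeR. *Socs5* and *Pias1* kept their direction in all 12, *Socs5* from 0.35 to 1.01 and *Pias1* from -0.37 to -0.13. For *Pias1*, whose groups did not overlap, leaving out 1 mouse could hardly reverse it. The share of all genes that kept their direction is not given here. With voom and sample quality weights, which gave CTL replicate 2 the lowest weight at 0.330, *Socs2* reversed to 0.099, *Cish* to 0.054 and *Socs7* to -0.23. With 1 mouse left out, *Socs1* ran from -0.38 to 0.040, *Socs3* from -0.12 to 0.35, *Socs7* from -0.29 to 0.29 and *Ptpn2* from -0.089 to 0.13, and these reversals came without CTL replicate 2 (*Socs1*, *Socs3* at -0.024, *Socs7* at -0.10), without CTL replicate 3 (*Ptpn2*), without *Prdm1*-CKO replicate 1 (*Socs3*) or without *Prdm1*-CKO replicate 2 (*Socs7*). The cause was not tested. *Cish* ran from -0.32 to -0.0075 and *Socs2* from -0.71 to -0.046. Inhibitors with separate groups ran from 0 to 1 for *Prdm1*-CKO above and from 1 to 2 below, and fewer mice make separate groups more frequent. The share of all genes that were separate with 1 mouse left out is not given here, so these counts have no background to be read against. Same-numbered mice were different animals, and their deviations from the group means had correlations of 0.158, 0.0282 and 0.0160. Mice with different numbers had correlations from -0.131 to 0.083. Whether same-numbered mice shared a batch was not tested. With the replicate number as a block *Socs5* was at 0.63 and *Pias1* at -0.27, 0 genes passed an adjusted p under 0.05, and 371 genes in place of 342 had an unadjusted p under 0.05. Depth limits *Socs2* most, with as few as 54 counts in a library.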
